A study of Homo sapiens with 9 samples.

Results

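The transcripts of 10 genes of iron handling and ferroptosis were followed across LIM1215 colorectal cancer cells and the cetuximab-resistant populations selected from them. The genes were taken by symbol, with earlier results of these data known but no measured value in the rule, from the 58920 genes listed for each library: GPX4 and AIFM2 (defence against lipid peroxides), ACSL4 and LPCAT3 (supply of oxidisable phospholipids), TFRC (iron uptake), FTH1, FTL and NCOA4 (iron storage and release), and IREB2 and ACO1 (iron regulatory proteins). LIM1215 is an established RAS wild-type colorectal cancer cell line that is initially sensitive to cetuximab, an antibody against the epidermal growth factor receptor. LIM1215-R1 and LIM1215-R2 were each selected separately from it in slowly increasing cetuximab, while LIM1215-parental was kept in culture alongside without the antibody. All 3 lines were sampled in ordinary medium with no drug added, with 3 libraries of poly(A) RNA per line. As a model the series has 2 limits: the resistant lines are mixed populations rather than clones, and the study calls the libraries of a line technical replicates, so each p-value below measures the spread between libraries of 1 culture history and not between separate selections. In bulk RNA of this kind, fewer cells that express a gene and less RNA per cell cannot be told apart.

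Ferroptosis is an iron-dependent death in which polyunsaturated phospholipids of the membrane are peroxidised. GPX4, a selenium-containing glutathione peroxidase, reduces these peroxides, and AIFM2 (FSP1) holds them back through reduced coenzyme Q, whereas ACSL4 and LPCAT3 load polyunsaturated fatty acids into the phospholipids that are attacked. Iron enters through the transferrin receptor TFRC and is stored in shells of ferritin heavy (FTH1) and light (FTL) chains, which NCOA4 delivers to lysosomes when iron is needed, and the iron regulatory proteins encoded by ACO1 and IREB2 bind hairpins named iron-responsive elements to block ferritin translation and to stabilise TFRC mRNA when iron is scarce.

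The iron-responsive elements are the sequence that FTH1, FTL and TFRC share, and they are printed because the same regulators act on the 3 genes through them, while the RNA levels of the 3 differed in how they changed here. A hairpin pattern was searched on the sense strand of canonical GENCODE transcripts (hg38): an unpaired C, 5 paired bases, the loop CAGTGN with N not G, the 5 pairing bases, and at least 4 pairs among the next 5. Of 12999 protein-coding transcripts of tested genes, 14 (0.108%) held a match, and 3 of the 10 genes did. Capitals mark the loop, and each site is 30 bases long and written as the transcript reads.
FTH1, 5′ UTR, exon 1, chr11:61967573-61967602, minus strand: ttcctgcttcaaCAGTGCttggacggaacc
FTL, 5′ UTR, exon 1, chr19:48965335-48965364, plus strand: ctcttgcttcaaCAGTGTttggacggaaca
TFRC, 3′ UTR, exon 19, chr3:196050978-196051007, minus strand: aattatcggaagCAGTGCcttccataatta
TFRC, 3′ UTR, exon 19, chr3:196050574-196050603, minus strand: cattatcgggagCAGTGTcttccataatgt
TFRC, 3′ UTR, exon 19, chr3:196050509-196050538, minus strand: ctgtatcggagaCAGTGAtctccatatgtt
TFRC, 3′ UTR, exon 19, chr3:196050462-196050491, minus strand: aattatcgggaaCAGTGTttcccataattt
By this pattern, the ferritin chains each held 1 site ahead of the coding sequence and TFRC held 4 behind it. Elements of other forms in these 3 genes would be missed, so the sites listed may not be all of theirs. For GPX4, AIFM2, ACSL4, LPCAT3, NCOA4, IREB2 and ACO1 these letters were not found in the transcript searched, which says nothing about other forms of the element. A match is a description of sequence, since binding was not measured.

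The libraries held 13737416 to 18725014 counts on genes, levels are given as CPM, counts scaled to a common library size with TMM factors, and all 10 genes were well above the limit that 3 counts set (0.160 to 0.218 CPM). The lowest count of any of them in any library was 609, for LPCAT3 in a LIM1215-R2 library. By mean CPM, FTH1 ranked 41, FTL 77 and TFRC 133 among the 19102 genes tested, and LPCAT3, the lowest of the 10, ranked 4641. Per kilobase of the canonical transcript, the parental mean was 1673 CPM for FTH1 and 1221 for FTL, then 141 for GPX4 and 141 for TFRC, 52.0 for NCOA4, 32.8 for LPCAT3, 25.7 for AIFM2, 21.2 for ACSL4, 15.6 for IREB2 and 6.95 for ACO1. The ferritin chains were thus far above the other genes on this per-length scale. In both resistant lines their order was exchanged on this scale, with FTL at 1193 and FTH1 at 1042 CPM per kilobase in LIM1215-R1, and FTL at 996 and FTH1 at 887 in LIM1215-R2. In CPM, FTH1 stayed above FTL (1253 beside 1039 in LIM1215-R1, 1067 beside 868 in LIM1215-R2). The exchange thus rests on the transcript lengths used, 1203 bases for FTH1 and 871 for FTL.

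Measured against the parental line, 6 of the 10 genes passed an adjusted p of 0.01 in LIM1215-R1 (edgeR quasi-likelihood test, adjusted over all genes tested), where 27.3% of all genes tested did, and 40.6% of those with a mean of at least 10 CPM, the range in which these genes lie. GPX4, AIFM2 and ACO1 were higher (3 of 10, beside 14.0% of all genes tested), and FTH1, LPCAT3 and IREB2 were lower (3 of 10, beside 13.4%). In LIM1215-R2, 4 of the 10 passed, beside 23.8% of all genes tested and 35.1% of those of at least 10 CPM: AIFM2 was higher (1 of 10, beside 12.3% of all genes tested), and FTH1, LPCAT3 and FTL were lower (3 of 10, beside 11.6%). The libraries of LIM1215-R1 and parental did not overlap for 6 of the 10 genes, beside 44.0% of all genes tested and 56.7% of those of at least 10 CPM, and those of LIM1215-R2 and parental for 7, beside 42.8% and 56.3%. With so many genes passing in these comparisons, the counts alone do not set the 10 genes apart, and 0 of the 10 reached an absolute log2 fold change of 1.5 in addition, as 5.14% of all genes tested did in LIM1215-R1 and 4.82% in LIM1215-R2. Their median log2 fold change was -0.03 in LIM1215-R1 and 0.02 in LIM1215-R2, beside -0.01 and 0.00 over all genes tested. Both comparisons use the same 3 parental libraries.

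**Figure D1:**
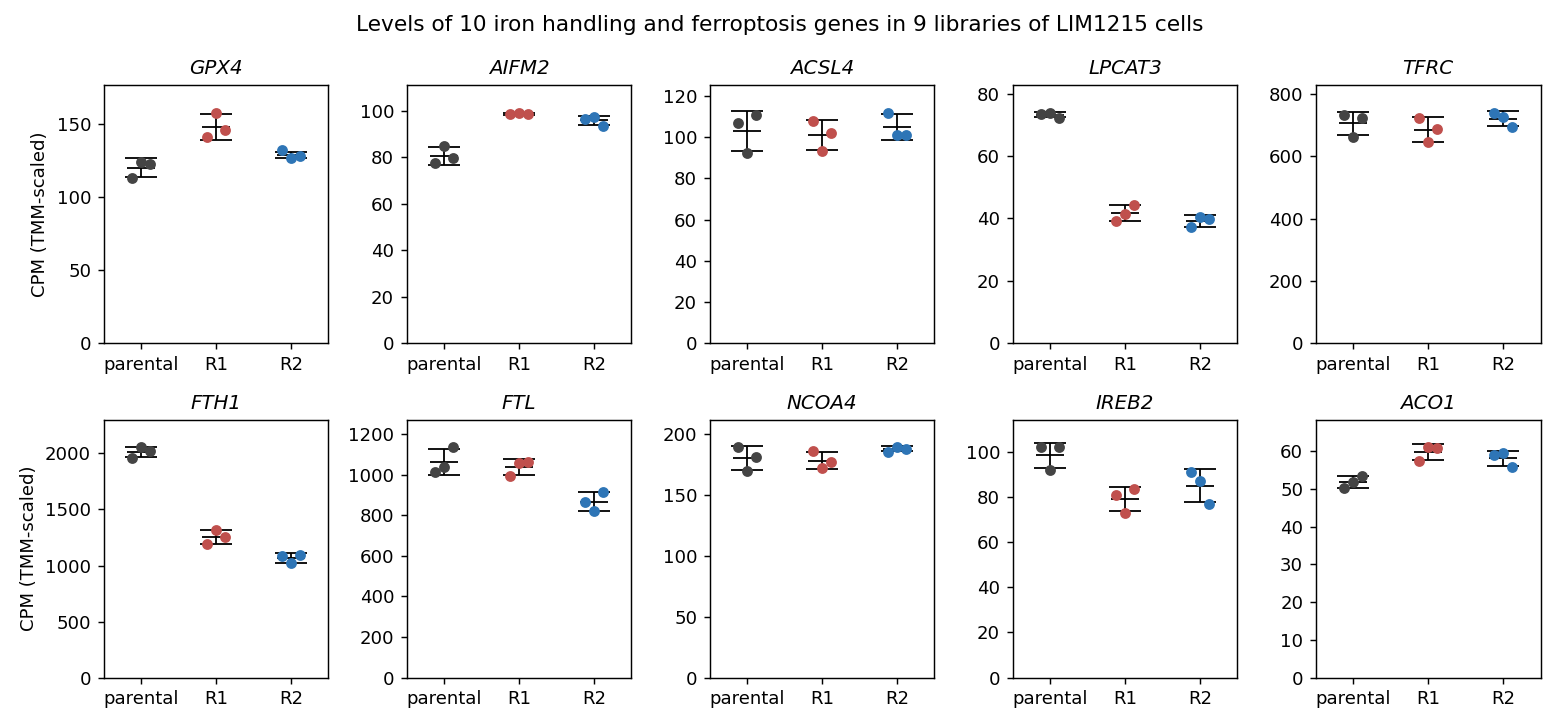
Level of each of the 10 genes in the 9 libraries, in TMM-scaled CPM (linear axis from 0, a separate scale per gene), by line; points are libraries, and the bars show the mean and SD of 3 libraries. The 3 parental libraries stand above all 6 resistant libraries for FTH1 (1962 to 2054 CPM in parental) and LPCAT3 (72.3 to 74.0 CPM), while the lines overlap for ACSL4, TFRC and NCOA4.

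Ferritin heavy chain, which carries the ferroxidase activity of the shell, fell in both resistant lines, with the second largest change of the 10 in LIM1215-R1, after LPCAT3, and the largest in LIM1215-R2, close to that of LPCAT3. FTH1 lies at chr11:61959718-61967634 on the minus strand, and its level was 1962, 2054 and 2022 CPM in the parental libraries, 1193, 1317 and 1249.9 CPM in LIM1215-R1, and 1083, 1020.0 and 1098 CPM in LIM1215-R2. The 3 lines did not overlap, with parental highest and LIM1215-R2 lowest. FTH1 fell in LIM1215-R1 (log2 fold change -0.68, SE 0.0387, adjusted p = 4.81e-14), a level 0.623 times that of parental. It fell further in LIM1215-R2 (-0.92, SE 0.0389, adjusted p = 9.92e-17, 0.530 times parental).

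FTH1 has many processed pseudogenes, so its counts could be split between copies. Of the 100-base windows of its canonical transcript, 20.7% also occurred in another annotated gene, beside 3.37% for FTL and 0 for the other 8 genes. With 50-base windows the shares were 41.3% for FTH1, 18.5% for FTL and 5.66% for NCOA4. The counts of the 25 FTH1 pseudogenes listed summed to 242 to 540 per library, or 1.23% to 1.82% of the FTH1 count. Adding them to FTH1, an alternative chosen after seeing the data, left its log2 fold changes at -0.68 and -0.92. Reads that match FTH1 and a copy equally well may be counted for neither, so this sum cannot show whether their loss matters. FTH1 also overlaps BEST1 on the opposite strand, which the stranded counting keeps apart.

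Ferritin light chain, which takes part in forming the iron core, fell in LIM1215-R2, and its difference between the resistant lines passed the test given further on. FTL (chr19:48965309-48966879, plus strand) was at 1015, 1039 and 1135 CPM in parental, at 994, 1058 and 1065 CPM in LIM1215-R1, and at 866, 820.1 and 917 CPM in LIM1215-R2. The LIM1215-R1 libraries lay within or just under the parental range, and the LIM1215-R2 libraries lay below both lines. FTL did not pass in LIM1215-R1 (log2 fold change -0.03, interval of 2 SE on each side -0.12 to 0.06, adjusted p = 0.625), though it did in the fit with a replicate block and the GC and length trends removed (-0.10, adjusted p = 0.000908), and it fell in LIM1215-R2 (-0.29, SE 0.0446, adjusted p = 6.11e-06, 0.816 times parental).

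TFRC, the receptor that takes up transferrin-bound iron, did not pass in either resistant line. It lies at chr3:196012511-196082153 on the minus strand. Its libraries held 732, 664 and 723 CPM in parental, 724, 646 and 689 CPM in LIM1215-R1, and 741, 728 and 693 CPM in LIM1215-R2. The lines overlapped, and the lowest library of parental and of LIM1215-R1 was replicate 2 in each, which was also the lowest library of its line for ACSL4, NCOA4 and IREB2. The log2 fold change was -0.04 in LIM1215-R1 (interval -0.13 to 0.05, adjusted p = 0.523) and 0.03 in LIM1215-R2 (interval -0.06 to 0.12, adjusted p = 0.688), so that at this depth any change of TFRC is bounded well below that of FTH1.

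NCOA4, the receptor that carries ferritin to the lysosome, did not pass in either line. NCOA4 (chr10:46005088-46030623, minus strand) was at 189, 169.8 and 181 CPM in parental, 186, 172 and 177 CPM in LIM1215-R1, and 185, 189 and 188 CPM in LIM1215-R2. The lines overlapped. The log2 fold change was -0.01 in LIM1215-R1 (interval -0.11 to 0.08, adjusted p = 0.871) and 0.06 in LIM1215-R2 (interval -0.04 to 0.16, adjusted p = 0.420).

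The mRNAs of the iron regulatory proteins went in opposite directions in LIM1215-R1. Their signs were the same in LIM1215-R2, where neither passed. IREB2, which encodes IRP2, a protein degraded when iron is plentiful, lies at chr15:78437431-78501453 on the plus strand and was at 102, 91.8 and 102 CPM in parental, 80.9, 73.1 and 83.5 CPM in LIM1215-R1, and 91.0, 86.9 and 76.8 CPM in LIM1215-R2. All 6 resistant libraries were below the parental ones, the nearest by less than 1 CPM. IREB2 fell in LIM1215-R1 (log2 fold change -0.32, SE 0.0651, adjusted p = 0.000297), and the size became -0.17 (adjusted p = 0.00120) once each library's trend on transcript GC content and length was removed. In LIM1215-R2 its log2 fold change of -0.21 (SE 0.0647) missed the threshold with an adjusted p of 0.0114, and it passed under several other settings, among them the fit with the GC and length trends removed (-0.21, adjusted p = 0.000102).

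ACO1 encodes IRP1, which is a cytosolic aconitase when it holds an iron-sulfur cluster and an RNA-binding protein when it does not. ACO1 (chr9:32384603-32454769, plus strand) was at 50.1, 51.8 and 53.4 CPM in parental, 57.4, 61.0 and 60.9 CPM in LIM1215-R1, and 59.0, 59.5 and 55.8 CPM in LIM1215-R2. The resistant libraries all lay above the parental ones and overlapped each other. ACO1 rose in LIM1215-R1 (log2 fold change 0.21, SE 0.0598, adjusted p = 0.00727), a call near the threshold that was lost in 6 of the 9 fits that left out 1 library (0.18 to 0.24, adjusted p up to 0.0412; without any 1 of the 3 parental libraries, LIM1215-R1 replicates 2 or 3, or LIM1215-R2 replicate 2), with scaling by total counts (0.17, adjusted p = 0.0245) and with only the 6 libraries of the comparison fitted (0.21, adjusted p = 0.0105). It did not pass in LIM1215-R2 (0.17, SE 0.0599, adjusted p = 0.0322), though it did with the GC and length trends removed (0.20, adjusted p = 0.00179).

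Of the enzymes that supply oxidisable phospholipids, LPCAT3 fell in both resistant lines and ACSL4 passed in neither. LPCAT3, which places polyunsaturated acyl chains on lysophospholipids, lies at chr12:6976185-7018477 on the minus strand. It was at 73.5, 74.0 and 72.3 CPM in parental, 39.3, 41.5 and 44.4 CPM in LIM1215-R1, and 37.1, 40.6 and 39.8 CPM in LIM1215-R2. Every resistant library was below every parental one, and the resistant lines overlapped each other. The log2 fold change was -0.81 in LIM1215-R1 (SE 0.0626, adjusted p = 3.14e-11, 0.570 times parental) and -0.90 in LIM1215-R2 (SE 0.0631, adjusted p = 3.85e-12, 0.534 times parental).

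ACSL4 activates arachidonic and adrenic acid to their coenzyme A esters. ACSL4 (chrX:109624244-109733403, minus strand) was at 107, 92.3 and 111 CPM in parental, 108, 93.2 and 102 CPM in LIM1215-R1, and 112, 101 and 101 CPM in LIM1215-R2. In the GENCODE annotation ACSL4 overlaps KCNE5 on the same strand, which stranded counting does not keep apart, and any effect on its counts was not tested. The spread between libraries of a line was wider than any distance between the line means. The log2 fold change was -0.04 in LIM1215-R1 (interval -0.17 to 0.10, adjusted p = 0.733) and 0.01 in LIM1215-R2 (interval -0.12 to 0.15, adjusted p = 0.909).

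Both genes of lipid peroxide defence were higher in LIM1215-R1, and AIFM2 also in LIM1215-R2. GPX4 (chr19:1103982-1106791, plus strand) was at 113, 124 and 123 CPM in parental, 141, 158 and 146 CPM in LIM1215-R1, and 132, 127 and 128 CPM in LIM1215-R2. The LIM1215-R1 libraries were highest, and those of LIM1215-R2 lay just above parental. GPX4 rose in LIM1215-R1 (log2 fold change 0.30, SE 0.0538, adjusted p = 4.93e-05), with a size of 0.17 (adjusted p = 0.000615) once the GC and length trends were removed. Its transcript was the shortest of the 10 (851 bases) and the richest in GC (62.3%). In LIM1215-R2 it did not pass (0.10, SE 0.0541, adjusted p = 0.154).

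AIFM2 (chr10:70098223-70132934, minus strand) was at 77.5, 84.8 and 79.6 CPM in parental, 98.5, 99.3 and 98.7 CPM in LIM1215-R1, and 96.7, 97.2 and 93.6 CPM in LIM1215-R2. All 6 resistant libraries were above the parental ones. AIFM2 rose in LIM1215-R1 (log2 fold change 0.29, SE 0.0529, adjusted p = 5.94e-05, 22.7% higher) and in LIM1215-R2 (0.25, SE 0.0530, adjusted p = 0.000444, 19.0% higher).

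**Figure D2:**
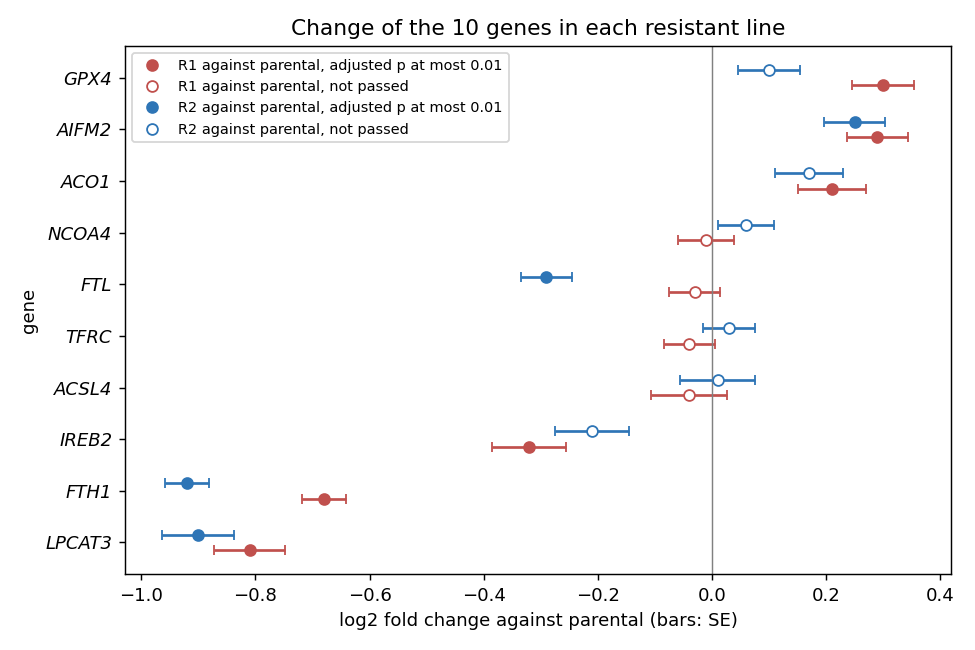
Log2 fold change of each gene against parental, LIM1215-R1 in red and LIM1215-R2 in blue, with SE as bars; filled points passed an adjusted p of 0.01 in edgeR and open points did not. FTH1 and LPCAT3 lie far to the left in both lines (-0.68 and -0.81 in LIM1215-R1, -0.92 and -0.90 in LIM1215-R2), AIFM2 to the right in both, and FTL to the left in LIM1215-R2.

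Tested against each other, the resistant lines differed in 2 of the 10 genes, beside 7.16% of all genes tested and 11.1% of those of at least 10 CPM. Both were ferritin chains and both were lower in LIM1215-R2, where 3.77% of all genes tested were lower and 3.39% higher, and neither reached a log2 difference of 1.5, as 0.764% of all genes did. FTH1 was lower by a log2 difference of -0.23 (SE 0.0387, adjusted p = 0.000115) and FTL by one of -0.26 (SE 0.0446, adjusted p = 0.000157). With the GC and length trends removed, the difference was -0.16 for FTH1 and -0.16 for FTL (adjusted p = 0.00103 for FTL). GPX4 was close to the threshold (-0.20, SE 0.0537, adjusted p = 0.0126), passed it in the fit with a replicate block (adjusted p = 0.00193) and moved to -0.07 (adjusted p = 0.333) with the GC and length trends removed. The differences of AIFM2 (-0.04, interval -0.15 to 0.06), LPCAT3 (-0.09, interval -0.22 to 0.04), TFRC (0.07, interval -0.02 to 0.16) and NCOA4 (0.07, interval -0.03 to 0.17) did not pass. Those of ACSL4 (0.05, interval -0.08 to 0.18), IREB2 (0.10, interval -0.03 to 0.23) and ACO1 (-0.04, interval -0.16 to 0.08) did not pass either. The libraries of the 2 resistant lines did not overlap for 4 of the 10 genes (GPX4, AIFM2, FTH1 and FTL), beside 28.0% of all genes tested and 36.9% of those of at least 10 CPM.

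Ratios of counts within a library do not depend on the size factor of the library, and 3 were taken. The ratio of FTH1 to FTL was 1.93, 1.98 and 1.78 in parental, 1.20, 1.24 and 1.17 in LIM1215-R1, and 1.25, 1.24 and 1.20 in LIM1215-R2. Parental libraries were above all resistant ones and the resistant lines overlapped (log2 difference between them 0.03, exact permutation p = 0.500). The mean log2 ratio differed from parental by -0.65 in LIM1215-R1 and -0.62 in LIM1215-R2 (exact two-sided permutation test, p = 0.1 each, the smallest that 3 libraries against 3 allow, and 0.150 adjusted over 9 tests).

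The ratio of FTH1, the iron store, to TFRC, the iron entry, was 2.68, 3.09 and 2.80 in parental, 1.65, 2.04 and 1.81 in LIM1215-R1, and 1.46, 1.40 and 1.58 in LIM1215-R2. The lines did not overlap. The log2 difference from parental was -0.64 in LIM1215-R1 and -0.95 in LIM1215-R2, and between the resistant lines it was -0.30 (exact permutation p = 0.1 for each, adjusted 0.150). The ratio of ACSL4 to GPX4 was 0.951, 0.743 and 0.901 in parental, 0.766, 0.589 and 0.703 in LIM1215-R1, and 0.852, 0.795 and 0.785 in LIM1215-R2. Parental overlapped both resistant lines (log2 difference -0.33, exact permutation p = 0.200, and -0.09, p = 0.500), while LIM1215-R2 lay above LIM1215-R1 (0.25, p = 0.1). These ratios join genes of unlike GC content and length: with those trends removed, the log2 differences between LIM1215-R2 and LIM1215-R1 were -0.09 for ACSL4 and -0.07 for GPX4, so that the ratio hardly differed, and -0.16 for FTH1 and -0.02 for TFRC. In the same fit, LIM1215-R1 against parental gave 0.10 for ACSL4 and 0.17 for GPX4.

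**Figure D3:**
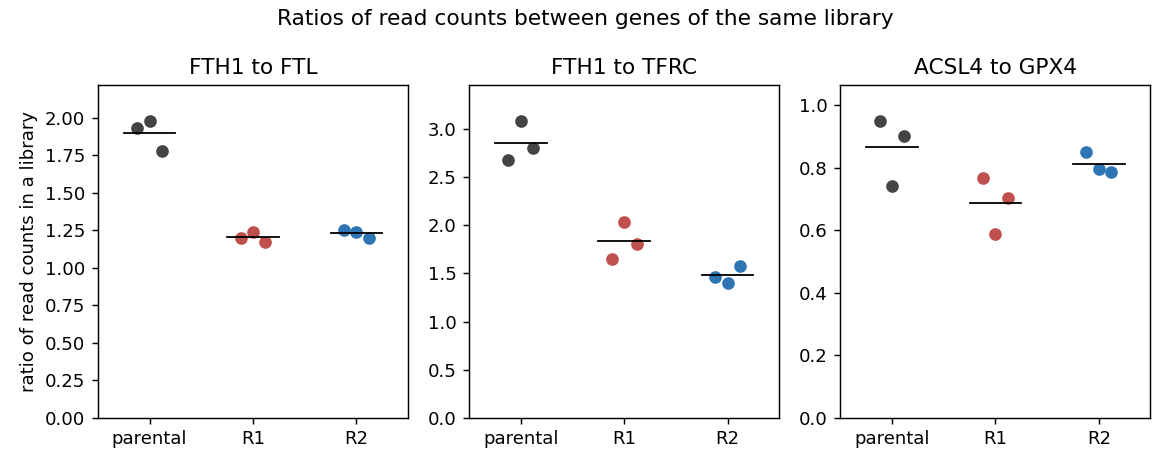
Ratios of read counts between genes of the same library (linear axes from 0), by line; points are libraries and lines are means of 3. The FTH1 to FTL ratio has a mean of 1.90 in parental, of 1.21 for LIM1215-R1 and of 1.23 for LIM1215-R2, whereas the FTH1 to TFRC ratio is lowest in LIM1215-R2 (mean 1.48).

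FTH1 had the widest range of line means among the 10 (0.92 on the log2 scale), followed by LPCAT3 (0.90), and ACSL4 the narrowest (0.05). Among 9302 other genes of at least 10 CPM, those whose log2 CPM followed FTH1 most closely over the 9 libraries were LRIG1 (Pearson r = 0.9950), SNORC (0.9943), SLCO2B1 (0.9940), CDX2 (0.9934) and NRARP (0.9930). These values describe 9 libraries of 3 lines and carry no p. All 5 had the order of FTH1, highest in parental and lowest in LIM1215-R2, which largely follows from picking them by this correlation. LRIG1, for one, was at 61.0 ± 0.926, 28.0 ± 0.148 and 22.0 ± 1.43 CPM (mean ± SD, n = 3).

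Around these 10, 160 other genes of iron and ferroptosis pathways were listed in 7 groups, of which 141 were expressed enough to test. LIM1215-R1 had 46 of them higher and 22 lower (48.2% of those tested), beside 14.0% and 13.4% of all genes tested. LIM1215-R2 had 33 higher and 27 lower (42.6%), beside 12.3% and 11.6%. Of all genes of at least 10 CPM, 40.6% and 35.1% were called in the 2 lines. The median log2 fold change of the 141 was 0.10 and 0.05, beside -0.01 and 0.00 over all genes tested. The libraries of LIM1215-R1 and parental did not overlap for 87 of the 141 (61.7%, beside 44.0% of all genes tested and 56.7% of those of at least 10 CPM), and those of LIM1215-R2 and parental for 86 (61.0%, beside 42.8% and 56.3%).

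Among 21 genes of cystine, glutathione and selenoprotein supply, the route that feeds GPX4, LIM1215-R1 had 10 higher and 4 lower than parental. LIM1215-R2 had 9 higher and 4 lower. The shares called were 66.7% and 61.9%, beside 27.3% and 23.8% of all genes tested. Of all genes of at least 10 CPM, 40.6% and 35.1% were called. The median log2 fold change of the 21 was 0.29 and 0.04. SLC7A11, the cystine importer, rose from 37.5 ± 0.990 CPM in parental (mean ± SD, n = 3) to 96.6 ± 9.06 in LIM1215-R1 and 98.4 ± 5.97 in LIM1215-R2 (log2 fold change 1.36 and 1.39, adjusted p = 3.72e-15 and 2.42e-15). Its partner chain SLC3A2 rose by less (0.42 and 0.47), and GGT1, which splits extracellular glutathione, rose from 3.53 ± 1.10 to 33.0 ± 1.21 and 24.3 ± 0.0405 CPM (3.27 and 2.82). CTH, which makes cysteine from cystathionine inside the cell, fell from 27.9 ± 0.415 to 9.30 ± 0.719 and 7.70 ± 0.434 CPM (-1.59 and -1.86).

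Of 23 genes of iron uptake, export and systemic control, 14 could be tested. In LIM1215-R1 8 rose and 2 fell, while in LIM1215-R2 6 rose and 3 fell. That was 71.4% and 64.3% called, beside 27.3% and 23.8% of all genes tested. Of all genes of at least 10 CPM, 40.6% and 35.1% were called. The median log2 fold change of the 14 was 0.47 and 0.24. LCN2, a siderophore-binding protein, rose from 61.3 ± 4.54 CPM to 428 ± 24.2 and 263 ± 6.15 (log2 fold change 2.81 and 2.10), and MELTF, a membrane-anchored transferrin relative, rose too (1.11 and 1.29). STEAP1, a member of a family of metalloreductases, fell from the low level of 3.12 ± 0.478 CPM (-1.29 and -2.02), and SLC11A2, the divalent metal transporter DMT1, fell slightly (-0.30 and -0.33). SLC40A1, the iron exporter ferroportin, had 0 counts in all 9 libraries, which allows up to 0.160 to 0.218 CPM as far as counting error goes. HMOX2, the constitutive heme oxygenase, singled out after its values were seen, was also near 0 (at most 0.177 CPM in any library), and since the annotation used for counting is not given in the sources used here, such values may not give the level of the transcript.

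Of 25 tested genes of iron chaperones, IRP control and heme, 7 rose and 5 fell in LIM1215-R1, and 5 rose and 4 fell in LIM1215-R2. That was 48.0% and 36.0%, near the 40.6% and 35.1% of all genes of at least 10 CPM, and the median log2 fold change was 0.11 and 0.06. HMOX1, which breaks down heme and releases its iron, fell from 29.9 ± 1.46 CPM to 19.4 ± 0.313 and 12.5 ± 0.912 (log2 fold change -0.62 and -1.26). FLVCR2, a transporter of the heme exporter family, fell as well (-0.70 and -1.23). FBXL5, the iron-sensing subunit that marks IRP2 for degradation, was at 0.15 in LIM1215-R1, which did not pass (adjusted p = 0.0529), and rose by 0.23 in LIM1215-R2 (adjusted p = 0.00248).

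Genes of mitochondrial iron and iron-sulfur clusters had the smallest share called of the 7 groups in each line (18.2% and 9.09%). The shares were 27.3% and 23.8% of all genes tested, and 40.6% and 35.1% of those of at least 10 CPM. In LIM1215-R1, 4 of the 22 rose and 0 fell, and in LIM1215-R2, 1 rose and 1 fell. At an unadjusted p under 0.05 in edgeR there were 10 and 12 of the 22, and their median log2 fold change was 0.09 and 0.04. Of 14 genes of ferritinophagy and autophagy machinery, 4 rose and 1 fell in LIM1215-R1, and 2 rose and 1 fell in LIM1215-R2, which was 35.7% and 21.4% and no more than the 40.6% and 35.1% of all genes of at least 10 CPM (median log2 fold change 0.01 and 0.00). GABARAPL1, a ubiquitin-like protein of the autophagosome, rose in LIM1215-R1 from 1.57 ± 0.241 to 4.33 ± 0.728 CPM (log2 fold change 1.45) and did not pass in LIM1215-R2 (0.54, adjusted p = 0.0752).

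Of 19 suppressors that act apart from GPX4, 6 rose and 2 fell in LIM1215-R1, and 5 rose and 5 fell in LIM1215-R2, or 42.1% and 52.6% beside 40.6% and 35.1% of all genes of at least 10 CPM (median log2 fold change 0.04 and -0.09). MBOAT2, which places monounsaturated chains on phospholipids, fell from 183 ± 3.01 CPM to 86.8 ± 2.97 and 94.8 ± 2.24 (log2 fold change -1.08 and -0.95). SCD, the desaturase that makes monounsaturated fatty acids, was the 1 gene of all 7 groups called in opposite directions, rising by 0.41 in LIM1215-R1 (adjusted p = 6.43e-08) and falling in LIM1215-R2 (-0.20, adjusted p = 0.00147); it was picked out after its values were seen.

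Of 26 tested genes of polyunsaturated phospholipid supply and peroxidation, the group nearest to ACSL4 and LPCAT3, 7 rose and 8 fell in LIM1215-R1. In LIM1215-R2, 5 rose and 9 fell. That was 57.7% and 53.8%, beside 27.3% and 23.8% of all genes tested (median log2 fold change -0.01 and -0.02 in the group). Of all genes of at least 10 CPM, 40.6% and 35.1% were called. PTGS2, the inducible prostaglandin synthase often read as a marker of ferroptosis, rose from 5.71 ± 0.432 CPM to 25.4 ± 2.23 and 16.3 ± 1.58 (log2 fold change 2.14 and 1.51). NOX1, a superoxide-making oxidase of colon epithelium, rose (1.28 and 1.44), as did ACSL6, a relative of ACSL4 (1.52 and 2.08, from 6.10 ± 0.355 CPM in parental). These genes, named by rule, all rose, though more of the group fell than rose. Other relatives, added after their values were seen, did not rise: ACSL5 fell (-1.20 and -1.18), and so did LPCAT2 (-0.83 and -0.68). ACSL1, LPCAT1 and LPCAT4 passed in neither line.

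**Figure D4:**
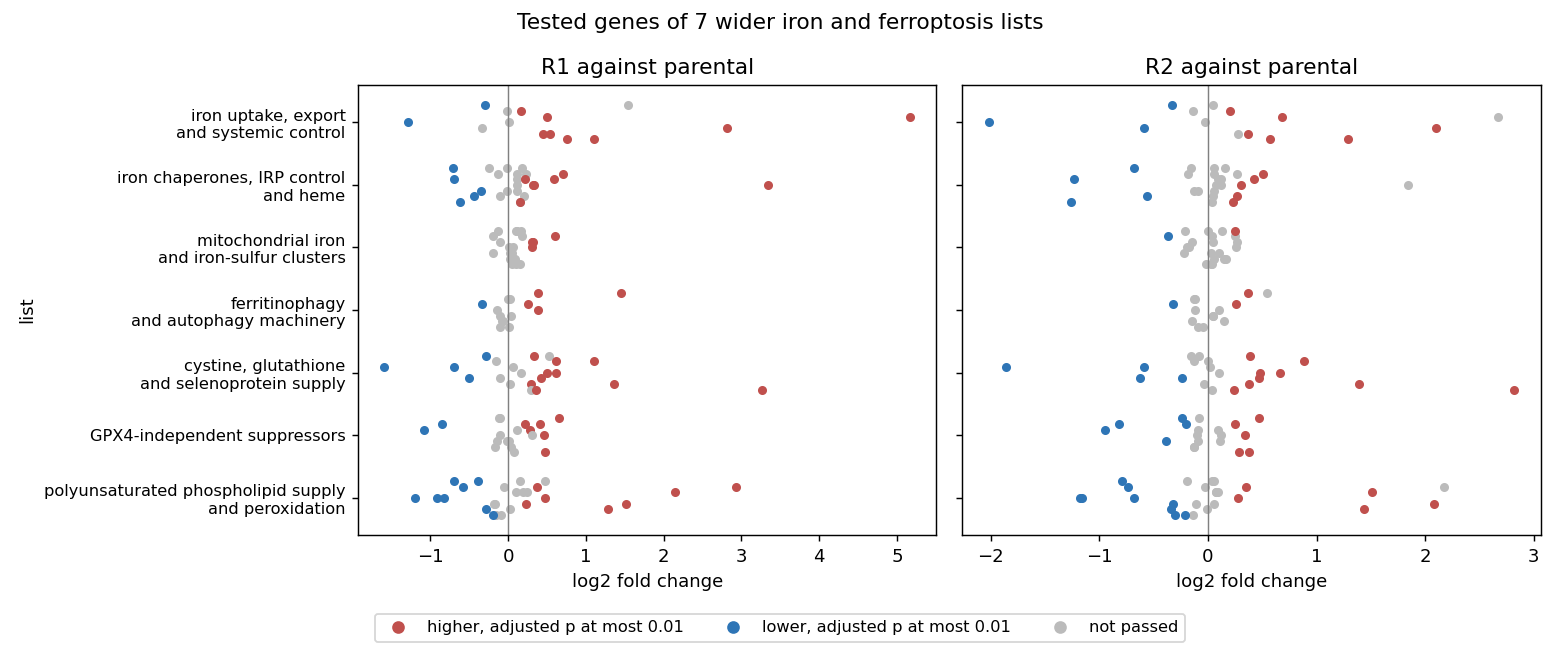
Log2 fold change of each tested gene of the 7 wider groups against parental, LIM1215-R1 on the left and LIM1215-R2 on the right, 1 point per gene, on separate horizontal scales; red and blue points passed an adjusted p of 0.01 in edgeR and grey points did not. The mitochondrial group lies close to 0 with 4 and 2 of its 22 genes passing, and the cystine group spreads widely with 14 and 13 of its 21.

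The labelled cell type was checked on marker genes. Of 10 markers of colon epithelium, 9 were expressed and KRT20 had 0 counts in every library, and their summed level, most of it from the keratins KRT8 and KRT18, was 12745 to 13122 CPM in parental, 15902 to 16175 CPM in LIM1215-R1 and 14432 to 14835 CPM for LIM1215-R2, so it moved with the line. CDX2 of the same list ran the other way (413, 305 and 283 CPM in the 3 lines), and the part of these markers in the results was not tested. Summed markers of endothelium (at most 0.722 CPM), fibroblasts (at most 2.01) and liver cells (at most 0.368) were near 0. The leukocyte sum was 6.96 to 14.4 CPM, nearly all of it CD68, with PTPRC and CD3E at 0, and the red cell sum of 14.6 to 30.4 CPM was nearly all HBA2.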

How the data were processed

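RNA of 3 lines, with 3 libraries each, was measured by stranded poly(A) sequencing. Per the labels and the study's methods, the authors aligned paired-end reads to hg38 with STAR and deposited raw counts per gene from HTSeq 0.9.1 (reverse strand); the gene annotation is not given in the sources used here. No column of the deposited files belonged to other samples. Groups came from the sample titles.

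The 10 genes, the wider lists and the tests were chosen with earlier results of these data known. A sum of at least 10 counts over all 9 libraries kept 19102 of 58920 genes, which were fitted in 1 model with the line as factor (edgeR 4.0.16, TMM factors 0.984 to 1.02, quasi-likelihood test, R 4.3.3), p-values adjusted by Benjamini-Hochberg across every gene tested. The threshold for a call was an adjusted p of 0.01, and intervals are 2 SE on each side. The biological coefficient of variation was 4.92%. Every pair of libraries within a line differed by more than counting noise (chi-square over its degrees of freedom 1.82 to 6.04), so none was merged. The scripts were tested on simulated counts.

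Genes of the wider lists were named by rule: SLC7A11, SLC40A1, SLC11A2, HMOX1, FBXL5 and SLC3A2 always, and up to 3 per list with the largest called change of at least 1 on the log2 scale and a mean of at least 1 CPM in the higher line. Similar genes were the 5 with the highest Pearson correlation with the member of widest range. Alternatives were other filters, scalings (DESeq2 1.42.0 size factors, total counts), DESeq2, a 6-library fit, a replicate block, removal of GC content and length trends, other thresholds, and each library left out. Limits from counts cover counting error only. Positions and sequences are from hg38 with the GENCODE annotation.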

Additional observations from a re-analysis of the deposited data

Results flagged for a closer look

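The change against parental differed between the 2 resistant lines for 8 genes among the 10 and the wider-list genes named by rule. The test was edgeR's, of LIM1215-R2 against LIM1215-R1 with adjustment over all genes tested, where 7.16% of all genes passed and 11.1% of those of at least 10 CPM. Most of the wider-list genes were named for a large change against parental in these same libraries, which favours a difference between the lines. The number 8 is therefore not a result about these genes as a set. Groups of 3 libraries were too small to look for single outlying libraries. The difference in log2 fold change, LIM1215-R2 minus LIM1215-R1, was -0.23 for FTH1 (adjusted p = 0.000115) and -0.26 for FTL (adjusted p = 0.000157). Ferritin mRNA was thus lower in LIM1215-R2 in both chains, by less with the GC and length trends removed. The difference was -0.70 for LCN2 (adjusted p = 5.58e-11), -0.44 for GGT1 (adjusted p = 0.00120), -0.63 for PTGS2 (adjusted p = 2.43e-05) and -0.91 for GABARAPL1 (adjusted p = 0.00186), where the rise was smaller in LIM1215-R2 or, for GABARAPL1, did not pass there. For HMOX1 it was -0.64 (adjusted p = 1.14e-05), a deeper fall in LIM1215-R2. For ACSL6 it was 0.56 (adjusted p = 2.78e-05), a larger rise in LIM1215-R2. SCD, named after its values were seen, also differed (-0.61, adjusted p = 3.59e-10). What sets the lines apart was not tested, and each line is 1 selection.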

How the results depend on the processing

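FTH1 and LPCAT3 in both resistant lines, AIFM2 in both, GPX4 and IREB2 in LIM1215-R1 and FTL in LIM1215-R2 kept their direction and their call under every alternative run apart from the size threshold, as did FTH1 and FTL between the resistant lines. The number of the 10 genes called fell to 0 in LIM1215-R1, 0 in LIM1215-R2 and 0 between the resistant lines once a log2 fold change of 1.5 was also required, since no gene was that far from 0. With 1 library left out, it ran from 5 to 6, 4 to 5 and 2 to 3, and for the wider lists from 60 to 69, 51 to 63 and 8 to 14. The wider count between the resistant lines was 13 of 141 tested (9.22%), beside 7.16% of all genes tested and 11.1% of those of at least 10 CPM. It was 8 without LIM1215-R2 replicate 1 and 8 without replicate 2, where fewer samples were fitted. With the GC content and length trends removed it was 28, and calls over all genes rose as well, from 1368 to 1860. The cause was not tested.

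Changes of sign were all among values that did not pass. With the GC and length trends removed, the LIM1215-R1 values of ACSL4, TFRC and NCOA4 became 0.10, 0.05 and 0.04, and the differences between the resistant lines of ACSL4, TFRC and IREB2 became -0.09, -0.02 and -0.04; total counts gave 0.00 for ACSL4 in LIM1215-R2. With 1 library left out, values ran from -0.11 to 0.02 for ACSL4, -0.08 to 0 for TFRC, -0.07 to 0.02 for FTL and -0.05 to 0.02 for NCOA4 in LIM1215-R1, from -0.06 to 0.07 for ACSL4 and -0.01 to 0.06 for TFRC in LIM1215-R2, and from -0.01 to 0.1 for ACSL4 between the resistant lines. The cause was not tested.

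Replicate numbers paired the libraries only in part. The correlation of deviations of same-numbered libraries was 0.402, 0.581 and 0.045 for LIM1215-R1 with parental. There, each LIM1215-R1 library correlated best with the parental library of its number, though replicate 3 hardly more than with parental replicate 1 (0.040). The values were 0.240, -0.158 and -0.178 for LIM1215-R2 with parental, and 0.347, -0.186 and -0.023 for LIM1215-R2 with LIM1215-R1. In these 2 pairs of lines, not every library correlated best with its own number. The main fit held no term for the replicate number. A block moved the calls over all genes from 5222, 4554 and 1368 to 5841, 5197 and 2044. The replicate block gave 6, 5 and 3 of the 10 genes, adding IREB2 in LIM1215-R2 (adjusted p = 0.00161) and GPX4 between the resistant lines. The block with the GC and length trends removed gave 7, 6 and 2. It gave 33 of the wider genes between the resistant lines, a number without the calls over all genes in that fit beside it. FTL passed in LIM1215-R1 only in that fit (-0.10, adjusted p = 0.000908). GC content and length were known for 86.3% of the genes tested.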
